A study of Mus musculus with 4 samples.

Results

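The genes described here are Hcn2, Hcn3 and Hcn4, which encode hyperpolarization-activated cyclic nucleotide-gated channels, and the data are the regions bound by REST at these genes in mouse embryonic stem cells (ESCs). REST is a zinc finger protein that represses genes of mature neurons in cells outside the nervous system. The genes were chosen by name from the GENCODE M1 annotation of the mm9 genome, which holds 4 Hcn genes, of which 3 are described. A REST-bound region was assigned to a gene when its midpoint lay in the gene or within 20 kb of any of its transcription start sites (TSSs). By this rule 3 of the 2504 listed regions were assigned, 1 to each gene.

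The series comprised 4 samples, of which 1 was analysed here, the chromatin immunoprecipitation of REST in wild type cells. These were undifferentiated N6 cells, labelled as strain C57BL/6, maintained with leukemia inhibitory factor and passaged off feeder fibroblasts before harvest. The H3K27me3 samples of wild type and REST-/- ESCs and the input DNA were not analysed here. Material from technical and biological replicates had been combined into a single library, so no region or rank had a replicate error, and no background level is given here because the input was not analysed. Each region carried its coordinates and a peak rank, in which 1 was read as the strongest peak, and how many reads lay behind any one of them was unknown. The list holds no expression values, so the ESC label could not be checked against marker genes, and binding at a gene says nothing here of its transcript level. Comparisons with other genes or regions are therefore descriptions of 1 list, without a test.

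HCN channels are cation channels of the plasma membrane that open when the membrane becomes more negative. Cyclic AMP bound to the intracellular domain of HCN2 or HCN4 makes these 2 channels open more readily. The current that HCN channels carry paces rhythmic firing in neurons and in the sinoatrial node of the heart. Hcn2 is widely expressed in brain and also in heart, Hcn4 is the principal isoform of the sinoatrial node and is also found in the thalamus, and Hcn3 has been described mainly in the nervous system. REST binds a DNA element termed RE1, in which 9 bases on the left and 10 on the right are defined and the 2 between them are free.

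A full RE1, defined as at most 5 mismatches over the 19 defined bases on either strand, was present once in each of the 3 regions. The sequences below show these RE1s beside the most frequent base at each position in the best RE1s of the 1450 other regions that had one. They are the elements on which the results turn. The defined bases are in capitals, the free bases are in lower case, and each is written 5′ to 3′ on the strand of the motif.
Most frequent bases: TTCAGCACCatGGACAGCGCC
Hcn2: TTCAGGACCacGGACAGCTCC
Hcn3: TTCAGCACCacGGACAGCAAA
Hcn4: TTCAGCACCatGGACAGTGTC

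The Hcn2 RE1 lay at chr10:79180905-79180925 on the plus strand, the Hcn3 RE1 at chr3:88963259-88963279 on the plus strand, and the Hcn4 RE1 at chr9:58689666-58689686 on the minus strand of mm9. Hcn2 and Hcn4 differed from the searched consensus at 2 bases each and Hcn3 at 3. With positions counted from 1 at the 5′ end of the motif, and the consensus base written first, Hcn2 had C6G and G19T, 1 in each element. Hcn3 had G19A, C20A and C21A, so that its left element was perfect and all of its mismatches were the last 3 bases of the right element. Hcn4 had C18T and C20T, again with a perfect left element.

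These changes fell at positions where RE1s vary. Among the best RE1s of all 1454 regions with a full RE1, the consensus base was present in 45.3% at position 19, 62.3% at position 20, 62.9% at position 6, 64.6% at position 18 and 73.7% at position 21. Other positions also varied, and at positions 1 (55.4%) and 2 (76.6%) all 3 genes carried the consensus base. Hcn2 carried common alternatives, since G at position 6 was found in 19.4% of RE1s and T at position 19 in 31.1%. In Hcn3 the alternative was A, found in 21.0% at position 19, 15.8% at position 20 and 11.8% at position 21. Those at positions 20 and 21 were thus less common than either alternative of Hcn2. The rarest was T at position 20 in Hcn4, found in 6.40%, and T at position 18 was found in 12.1%. At positions 7, 8, 13 and 16, where at least 98.1% of RE1s had the consensus base, so did all 3 genes.

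**Figure D1:**
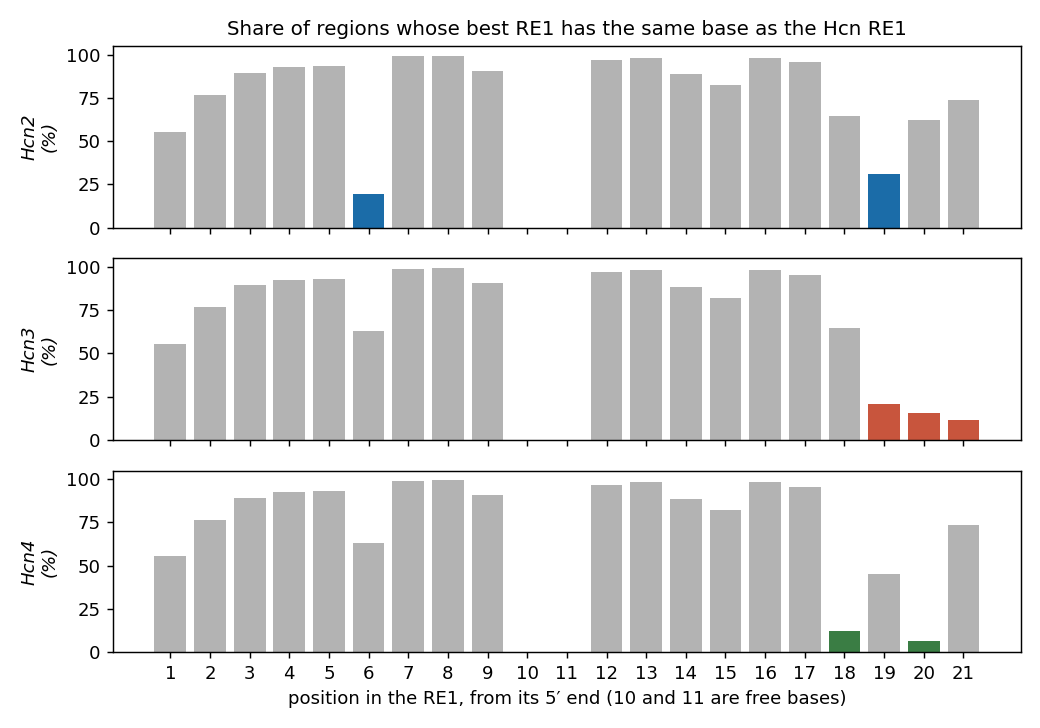
For each position of the RE1 (x axis, from the 5′ end), the bars give the percentage of the 1454 best RE1s that share the base of the Hcn gene named at left. Coloured bars are mismatches to the consensus, which lie at positions 6 and 19 in Hcn2, 19 to 21 in Hcn3, and 18 and 20 in Hcn4, and grey bars are matches.

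The agreement of each RE1 with the other bound elements was summarised as a log-odds score, the sum over 21 positions of the log2 ratio of the base's frequency in the other regions' RE1s to 0.25. The Hcn2 RE1 scored 30.74, higher than 97.2% of the best RE1s. The Hcn4 RE1 scored 28.44, higher than 87.8%, and the Hcn3 RE1 scored 27.25, higher than 77.5%. The median score was 24.51, so all 3 were above the middle of the list.

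The DNA around the RE1 is shown to set the elements in context, with 50 bases on each side, the RE1 in capitals apart from its free bases, and the same strand as above.
Hcn2, chr10:79180855-79180975, plus strand: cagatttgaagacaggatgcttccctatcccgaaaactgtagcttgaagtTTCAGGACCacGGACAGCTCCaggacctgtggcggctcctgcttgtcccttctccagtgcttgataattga
Hcn3, chr3:88963209-88963329, plus strand: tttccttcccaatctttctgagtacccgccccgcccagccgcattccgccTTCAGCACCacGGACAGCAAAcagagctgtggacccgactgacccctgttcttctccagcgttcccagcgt
Hcn4, chr9:58689616-58689736, minus strand: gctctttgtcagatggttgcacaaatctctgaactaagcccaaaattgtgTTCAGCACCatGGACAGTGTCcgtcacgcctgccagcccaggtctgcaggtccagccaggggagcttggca

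Because the genes are paralogues, the sequence outside the RE1 was compared between them. Compared base by base without gaps, the 100 flanking bases of Hcn3 and Hcn4 agreed at 32, those of Hcn2 and Hcn3 at 29, and those of Hcn2 and Hcn4 at 27. Over all 1056331 pairs of regions with a full RE1 the median was 25, with 18 and 33 at the 5th and 95th percentiles, so each Hcn pair lay within that range. The agreement of Hcn2 and Hcn3 was uneven, at 20 of 50 bases on the right and 9 of 50 on the left. Their right flanks also share the stretch cttctccag at positions that do not line up. A comparison without gaps cannot count such a stretch, and likeness with gaps was not tested. The RE1s themselves agreed at 15 of 19 defined bases in each of the 3 pairs, against a median of 14 over all pairs. The RE1 of Hcn2 was written on the same strand as the gene, and those of Hcn3 and Hcn4 on the opposite strand. Of 589 genes with their best ranked region inside the gene and a full RE1 in it, 50.8% had the RE1 on the strand of the gene.

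To ask where REST sat relative to the genes, the regions were placed on the exons of the longest coding transcript, which had 8 exons in each gene. All 3 regions lay wholly in the first intron. Hcn2 (ENSMUSG00000020331.3) spans chr10:79179379-79198853 on the plus strand, and its region, chr10:79180800-79181042, was 1.542 kb downstream of the TSS. Hcn3 (ENSMUSG00000028051.4) spans chr3:88949996-88964118 on the minus strand, and its region, chr3:88963132-88963469, was 0.818 kb downstream of the first TSS and 0.602 kb from the nearest of its 4 annotated TSSs. Hcn4 (ENSMUSG00000032338.8) spans chr9:58671319-58708762 on the plus strand, and its region, chr9:58689557-58689846, was 18.382 kb downstream of the TSS. Region starts are given as in the list.

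The position within the first intron differed between the genes. In Hcn2 and Hcn3 the region was near the first exon, 13.3% of the way into an intron of 7.168 kb and 6.04% of the way into an intron of 6.724 kb. In Hcn4 it was near the second exon, 89.9% of the way into an intron of 19.581 kb and 1.983 kb before exon 2. The annotated Hcn4 transcript begins at its first coding base, and the RefSeq start site, placed on mm9 by an exact match of its promoter sequence, was 0.563 kb farther upstream. From that site the Hcn4 region lay at 18.945 kb, still within the 20 kb limit.

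Of 2269 protein-coding genes with a region by the same rule, the best ranked region had its midpoint in the first intron in 14.5%. When only the 797 genes with their best ranked region in an intron were considered, it was the first intron in 41.3%. No full RE1 was found at the starts of Hcn2, Hcn3 or Hcn4, in a window from 250 bases before to 50 bases after each TSS. Such a window held a full RE1 in 3.62% of the 22367 protein-coding genes, where a gene was counted if any of its TSSs had one.

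**Figure D2:**
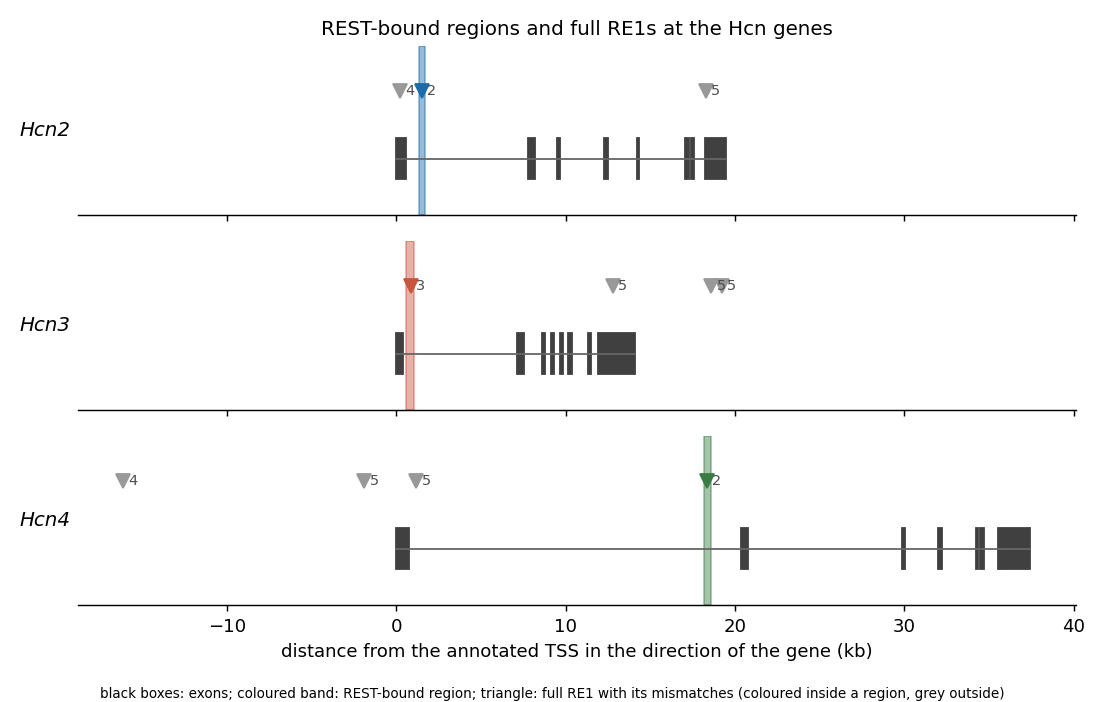
Maps of Hcn2, Hcn3 and Hcn4, with distance from the annotated TSS in kb on the x axis, exons as black boxes (close neighbours can merge at this scale), and the REST-bound region as a coloured band, drawn slightly wider than its length. Triangles mark full RE1s with their number of mismatches, coloured where they lay in a listed region, and each band lies in the first intron and holds the RE1 with fewest mismatches at its locus.

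Each of the 3 genes was occupied, whereas 10.1% of the 22367 protein-coding genes had a region in the gene or within 20 kb of a TSS. The Hcn genes are neither very short nor very long, at 19.475 kb for Hcn2, 14.123 kb for Hcn3 and 37.444 kb for Hcn4. Among genes of 10 to 50 kb the share with a region was 9.07%. The 3 regions each held a full RE1, as did 58.1% of all listed regions and 0.843% of flanking windows of the same width placed 2 kb to each side.

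The regions were single sites. For Hcn2 the nearest other region was 98.7 kb away, for Hcn3 569.0 kb and for Hcn4 736.6 kb, compared with a median of 139.6 kb over the list. The Hcn2 region was also within 20 kb of TSSs of Bsg, which encodes the surface glycoprotein basigin, at 13.818 kb, and Polrmt, which encodes the mitochondrial RNA polymerase, at 18.592 kb. The Hcn3 region was 5.417 kb from a TSS of Clk2, a protein kinase gene, and 18.095 kb from one of Scamp3, which encodes a secretory carrier membrane protein. Those genes are broadly expressed, and by the 20 kb rule they would share these regions, although the Hcn TSS was the nearest in each case. No other protein-coding TSS lay within 20 kb of the Hcn4 region.

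The peak rank differed between the genes. The Hcn3 region ranked 197 of 2504 and was thus above 92.1% of the list, the Hcn4 region ranked 482 and was above 80.8%, and the Hcn2 region ranked 653 and was above 73.9%. All 3 were therefore among the 1252 regions of higher rank, but without replicates it cannot be said whether the order of the 3 would recur. The Hcn3 region was also the widest, at 337 bp, with 10.1% of all regions wider. The Hcn4 region was 289 bp and the Hcn2 region 242 bp, around the median of 264 bp. Their GC contents were 53.3% for Hcn2, 54.9% for Hcn3 and 56.7% for Hcn4, against a median of 51.6%. The ratio of observed to expected CpG was highest at Hcn3, at 0.485, and was 0.349 at Hcn2 and 0.216 at Hcn4, against a median of 0.255.

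The order of the ranks was the reverse of the order of the motif scores. Hcn3, with the most mismatches and the lowest score of the 3, had the best rank, and Hcn2, with the highest score, had the lowest. Among regions whose best RE1 had 3 mismatches, 45 of 397 (11.3%) ranked above that of Hcn3, and the median rank of this class was 909. Among regions with 2 mismatches, 95 of 280 (33.9%) ranked above that of Hcn4 and 124 (44.3%) above that of Hcn2, with a median of 732.5. Over the 1454 regions with a full RE1, a higher score went with a better rank (Spearman's rho of -0.31 between score and rank, across regions that share 1 library). The 3 Hcn regions taken alone ran the other way, but 3 regions are too few to set against that relation.

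**Figure D3:**
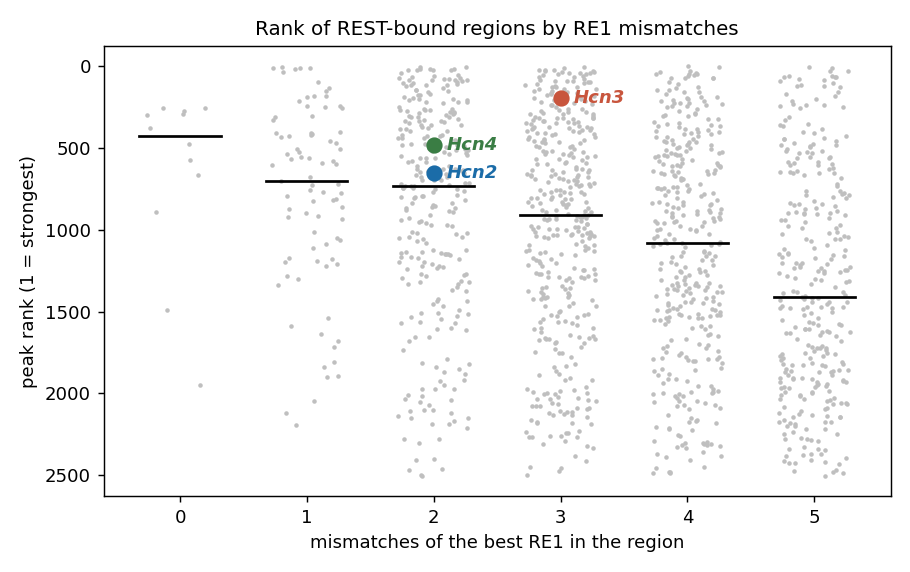
Peak rank (y axis, 1 at the top) against the mismatches of the best RE1 (x axis) for the 1454 regions with a full RE1, 1 grey point per region with a sideways shift for clarity and black bars at the medians. The Hcn2 and Hcn4 points (ranks 653 and 482) lie above the median of 732.5 for 2 mismatches, and Hcn3 (rank 197) lies well above the median of 909 for 3.

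To ask whether other RE1s at these genes were bound, each gene and the 20 kb around its TSSs were searched for all full RE1s. There were 11 in total, 3 at Hcn2, 4 at Hcn3 and 4 at Hcn4, and 3 of them lay in a listed region (27.3%). Each of the 3 was in the region already assigned to its gene, and it was the RE1 with the fewest mismatches at that locus. The 3 RE1s with 2 or 3 mismatches were in listed regions, and the 8 with 4 or 5 mismatches were not.

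In the genome as a whole the share also fell with mismatches. Of all 43767 full RE1s in the genome, 3.67% lay in a listed region, but this share was 85.9% of 334 with 2 mismatches (exact Clopper-Pearson 95% interval 81.7 to 89.5%, which covers counting error only), 49.5% of 860 with 3 (46.1 to 52.9%), 8.60% of 4858 with 4 (7.83 to 9.43%) and 1.01% of 37614 with 5 (0.912 to 1.12%). Matches in repeated sequence, where no read maps uniquely, could not have been listed and were not removed from these totals.

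The RE1s outside the listed regions scored lower than the bound ones. The score was built from RE1s in listed regions, and these 8 had more mismatches than the bound ones. Their lower scores were thus partly fixed in advance. The 2 with 4 mismatches are shown because they had the fewest mismatches of the 8. The first lay in the coding sequence of Hcn2 exon 1, at chr10:79179597-79179617 on the plus strand and 0.228 kb from the TSS, with 3 mismatches in the left element and 1 in the right. The other lay upstream of Hcn4, at chr9:58655185-58655205 on the plus strand and -16.124 kb from the TSS, with 4 in the left element and 0 in the right. Both lacked the consensus base at position 8, which 99.4% of the best RE1s in listed regions had. Of all 8 outside the listed regions, 3 carried that base, 2 at Hcn3 and 1 at Hcn4, so its absence did not mark them all.
Hcn2 exon 1, not in a listed region: CTCTGCAGCcgCGACAGCGCC
Upstream of Hcn4, not in a listed region: TTCTGTATGgtGGACAGCGCC
The first scored 5.39 and the second 9.46, where the bound RE1s of Hcn2 and Hcn4 scored 30.74 and 28.44. The 6 matches with 5 mismatches scored between 5.07 and 10.18. They lay in coding exon 8 of Hcn2, in exon 8 of Hcn3, in the neighbouring gene Pklr (2 matches), upstream of Hcn4 at -1.872 kb from the TSS, and in the first intron of Hcn4 at 1.197 kb from the TSS.

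**Figure D4:**
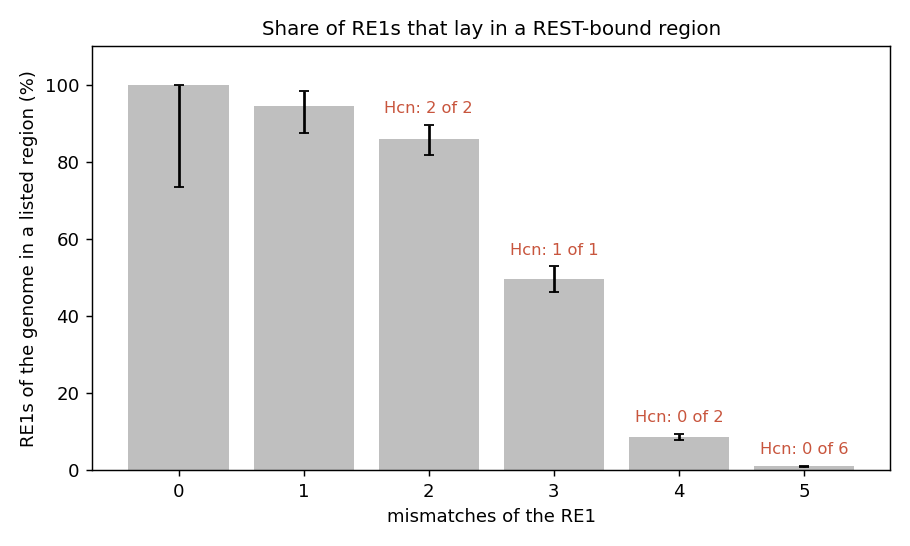
Percentage of full RE1s in the genome that lay in a listed region (y axis) by their number of mismatches (x axis), with exact 95% intervals as error bars. The labels give the Hcn loci, where 3 of 3 RE1s with 2 or 3 mismatches were in a region and 0 of 8 with 4 or 5 were.

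Genes that work with HCN channels were examined by the same rule, in 5 lists. Of 9 genes for proteins that bind or regulate HCN channels, 3 had a region (33.3%, against 10.1% of all protein-coding genes). Pex5l, which encodes the auxiliary subunit TRIP8b that controls the surface level of HCN channels, had 3 regions, the best of rank 1800 in its intron 6 and with 2 full RE1s. The regions of Magi2, a scaffold protein gene, and Nedd4l, a ubiquitin ligase gene, ranked 2196 and 2370 and had 1 full RE1 each. The best ranks of these 3 genes were thus all lower than those of the channels, and the genes are long, at 194 kb for Pex5l, 330 kb for Nedd4l and 1478 kb for Magi2. No region was assigned to Kcne2, Kctd3, Flna, Cav3, Mrvi1 or Lrmp.

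The channels nearest to HCN in structure are those that share a cyclic nucleotide-binding type of domain. Of the 8 Kcnh genes, which encode voltage-gated potassium channels with such a domain, 6 had a region (75%, against 10.1% of all protein-coding genes), with a median best rank of 749 compared with 1170 over all genes with a region. The best were Kcnh2 (rank 272), which encodes the cardiac and neuronal ERG channel, Kcnh4 (rank 335) and Kcnh1 (rank 535). Each of these had a full RE1 with 2 mismatches, as at Hcn2 and Hcn4, and at Kcnh4 the region lay in the first intron, 0.634 kb from a TSS. Kcnh6 (rank 963) had no full RE1 in its region, Kcnh7 ranked 1650 and Kcnh8 1824. Kcnh1 (319 kb), Kcnh7 (491 kb) and Kcnh8 (179 kb) are long genes, and Kcnh2 (32 kb), Kcnh4 (19.6 kb) and Kcnh6 (26.4 kb) lie within the length range of the Hcn genes, against a median of 15.4 kb over all protein-coding genes. Of the 6 genes for cyclic nucleotide-gated (CNG) channels of sensory cells, 1 had a region (16.7%, against the same 10.1%). This was Cnga3, which encodes a subunit of the cone photoreceptor channel (rank 516), with 1 full RE1 at 0.286 kb from a TSS.

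Of 25 genes for adenylyl cyclases and phosphodiesterases, which set the level of cyclic AMP, 4 had a region (16.0%, against 10.1% of all protein-coding genes). Adcy5, an adenylyl cyclase gene prominent in striatum and heart, had a region of rank 85 in its intron 20 with a full RE1 of 2 mismatches. Pde4c ranked 96 without a full RE1, Pde2a had 4 regions with a best rank of 525, and Pde4d ranked 1426 without a full RE1. Pde4d (1504 kb) and Adcy5 (151 kb) are long genes. Of 20 genes of the sinoatrial node, where Hcn4 acts, 6 had a region (30.0%, against the same 10.1%). Shox2, which encodes a transcription factor needed for the node, ranked 224 without a full RE1, and the calcium channel genes Cacna1d and Cacna1h ranked 1239 and 1806. Nppa and Nppb, which encode natriuretic peptides, were assigned the same region (rank 1087), and Ryr2, the cardiac ryanodine receptor gene, ranked 2032. Ryr2 (554 kb) and Cacna1d (451 kb) are long genes. The best regions of the 5 genes other than Shox2 each held a full RE1.

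Of the 20 genes from these 5 lists with a region, 2 had the best ranked one in the first intron, Kcnh4 and Nedd4l, whereas all 3 Hcn genes did. With lists this small, and genes of different length, these shares are counts and not evidence of a difference between the groups.

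**Figure D5:**
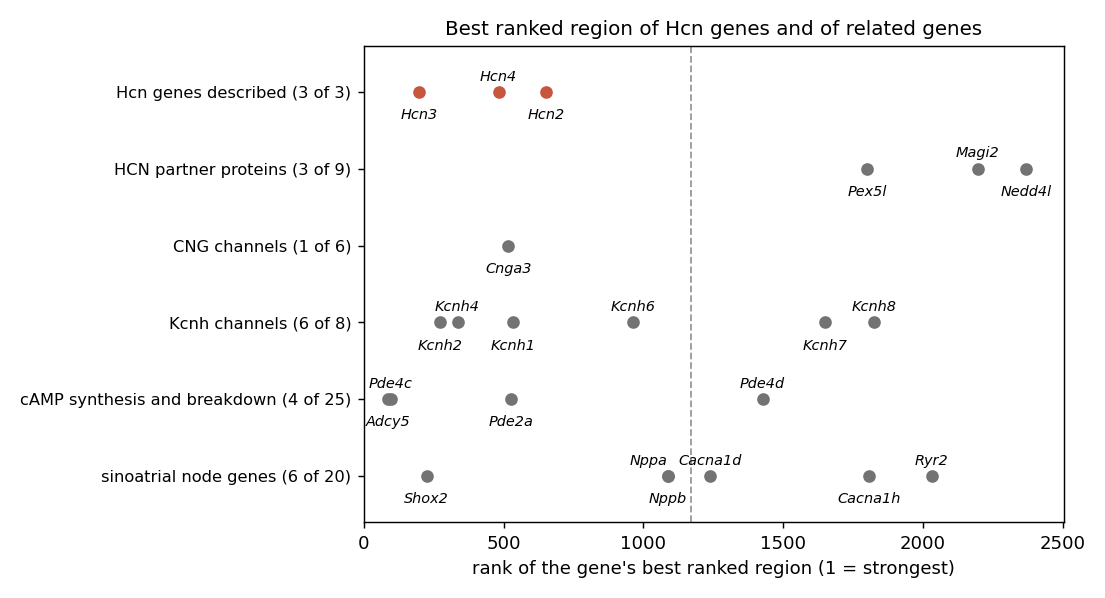
Rank of the best ranked region of each gene (x axis, 1 is the strongest) for the Hcn genes and 5 lists of related genes, with the number of genes with a region of those in the annotation in brackets. The dashed line is the median of 1170 over all genes with a region, and the Hcn genes at 197, 482 and 653 lie to its left, while the HCN partner protein genes lie to its right.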

How the data were processed

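According to the methods, REST ChIP DNA was sequenced on an Illumina Genome Analyzer II, aligned to mm9 with Bowtie (the submitters' processing notes name BWA; versions are not given in the sources used here) with unique reads kept, and peaks shared by PeakRanger and MACS were retained. Whether the list is that overlap is not stated, and it does not hold the number of regions given in the study's text, so ranks and shares here refer to the list as deposited. The deposited list holds coordinates and the authors' peak rank, used as a score, without heights or p-values. Its starts were read as counting from 0, and rank 1 as the strongest peak.

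Sequence and annotation were NCBIM37 and GENCODE M1 (Python 3.11.15, numpy 2.4.6, pandas 2.3.3, scipy 1.17.1), with start sites from RefSeq promoters (GRCm38.p6). The left element searched was TTCAGCACC, and the right element is that of the consensus shown. The search was tested on simulated data, where 200 of 200 planted RE1s were recovered and 2 other matches were found. The planted RE1s had at most 5 mismatches by design, so this checked the code and did not measure specificity. The score matrix used a pseudocount of 1 and left out the regions of all Hcn genes. No set test was run. Members and lists were chosen with earlier results of these data known, and genes named are the members, their neighbours, and list genes with a region (up to 6 a list), except list genes without one and Pklr, named after their values were seen. 1 further gene that the rule selects is not reported here.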

Additional observations from a re-analysis of the deposited data

How the results depend on the processing

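With 1 pooled library, no replicate could be left out and no paired analysis was possible because the groups have 1 sample each. All 3 Hcn genes kept a region under 4 of the 5 other ways of tying regions to genes, and 2 of 3 did within 5 kb of a TSS with gene bodies not counted, which left out Hcn4. Over all protein-coding genes the share was 3.99% within 5 kb and 8.84% within 20 kb of a TSS, both without gene bodies. It was 17.1% within 50 kb or in the gene, 5.36% with only the 1252 regions of higher rank, and 10.2% with any overlap. All 3 regions kept a full RE1 under each of the 5 other searches. Among all listed regions the share was 30.8% with at most 3 mismatches, 45.4% with at most 4 and 69.8% with at most 6. It was 58.1% with starts read as counting from 1, and 58.5% with regions widened by 50 bases on each side. The share of full RE1s at the loci that lay in a region was 100% with at most 3 mismatches (3 of 3) and 60% with at most 4 (3 of 5). Over the genome, 59.7% of RE1s with 2 or 3 mismatches and 8.6% of those with 4 lay in a region. Among regions with a full RE1 alone, the share ranked below was 65.9% for Hcn2, 90.1% for Hcn3 and 75.1% for Hcn4. A second matrix used only those of the 1252 regions of higher rank that had a full RE1, without those of Hcn genes. With it, the share of RE1s scoring lower was 81.6% for Hcn3 and 85.0% for Hcn4. Depth, and error of ranks, could not be assessed.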

Other observations

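The 21 bases of the Hcn2 RE1 occurred at 1 other place in the genome, and so did those of the Hcn3 RE1, and both copies were in listed regions of better rank. The copy of the Hcn2 RE1 lay at chr12:106504491-106504511 on the minus strand, between genes and 43.554 kb from the nearest protein-coding TSS, that of Tcl1, in a region of rank 222, where Hcn2 ranked 653. The copy of the Hcn3 RE1 lay at chr6:55058501-55058521 on the plus strand within Crhr2, which encodes a receptor for corticotropin-releasing hormone and urocortins, in a region of rank 32, where Hcn3 ranked 197. Elements with the same 21 bases therefore differed in rank by 431 places in the first pair and 165 in the second. The region with the copy of the Hcn2 RE1 held 2 full RE1s and that with the copy of the Hcn3 RE1 held 1, as did the Hcn regions. With a single library, the part of replicate error in these gaps was not tested. The Hcn4 RE1 occurred once in the genome.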
